A study of Mus musculus with 12 samples.

Results

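Th1-like Cxcr6 CD4 cells are the islet T cells of the CD4 lineage that carry mRNA of the chemokine receptor Cxcr6 together with that of the T-box factor Tbx21 or the cytokine Ifng. They come from 4 libraries of live T cells, sorted by a T cell receptor antibody out of the islets of 12-week-old female NOD mice before diabetes, a strain that develops autoimmune diabetes spontaneously. No group was treated, the 4 libraries are biological replicates, and the labels do not say how many mice went into each, so that the p-values measure the spread between these libraries. In every library mRNA and 4 antibody tags (CD4, CD8b through PE, CD62L and CD11a) were counted in the same cells as unique molecular identifiers (UMIs), and a T cell receptor (TCR) library was read from them. Members were chosen by their measured UMIs. A member had at least 500 gene UMIs, at most 8% mitochondrial UMIs, a CD4 antibody count of at least 40, no UMI of Cd8a, Cd8b1, Foxp3, Il21 or Cxcr5, at least 1 UMI of Cxcr6 and at least 1 of Tbx21 or Ifng. Of 443 barcodes that met this, 29 carried the TRAV11 or TRAV11D with TRAJ18 receptor of invariant NKT cells and were left out. The remaining 414 of 27423 barcodes were the members, 49, 106, 120 and 139 of them in replicates 1 to 4.

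Th1 cells are helper T cells that make interferon-γ under the control of T-bet, the product of Tbx21, and that respond to IL-12 and IL-18. CXCR6 is a chemokine receptor for CXCL16 that activated and tissue-resident T cells carry. In NOD mice interferon-γ producing CD4 cells have long been studied among the lymphocytes that enter the islets, beside follicular-type helper cells that make IL-21.

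The members were set against 2 groups of the same libraries. The other CD62L-low CD4 cells had the same CD4, Cd8 and Foxp3 gates and a CD62L antibody count of at most 3, and numbered 1123, 1267, 1293 and 1797 cells. CD62L is the lymph node homing receptor that T cells lose on activation. The second group, called helper cells below, were the 329, 345, 379 and 445 of these with an Il21 or Cxcr5 UMI, a cytokine and a chemokine receptor of follicular-type helper cells. Helper cells are thus part of the first group, and both comparisons share the member cells. UMIs were summed over the cells of a group in a library, tested in edgeR with the library as pair, and called at a Benjamini-Hochberg adjusted p under 0.05. Levels are UMIs scaled to a common total (CPM), differences are log2 fold changes ± SE, and n is 4 libraries throughout.

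The member sums held 457891, 606541, 664682 and 613111 UMIs, and those of the other CD62L-low cells 6198066 to 7584420. Members carried a median of 5554, 4333, 4388.5 and 3711 UMIs per cell, more in every library than the other CD62L-low cells with 3748, 4077, 3699 and 3024. Among cells of 2000 to 8000 UMIs, 809 genes differed between them, against 773 in all cells, with 568 called in both. Within that range the members still carried more, with medians of 5000, 4076, 4182 and 3730.5 UMIs, against 3754, 3915, 3750.5 and 3258.5. A second productive TRB chain, which a doublet can carry, was read in 7.06% of the members with a TRB chain and in 3.93% of the other CD62L-low cells. Any 2 of the libraries shared 36 to 102 barcode sequences. Only 2 of the 414 members had no UMI of Cd3d, Cd3e or Cd3g.

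Cxcr6, Tbx21 and Ifng chose the members, so their levels are a description. A Tbx21 UMI was present in 283 members, an Ifng UMI in 236 and both in 105, and 163 members held a single Cxcr6 UMI. Cxcr6 stood at 470, 533, 533 and 630 CPM in the members, against 31.3, 44.3, 63.5 and 76.6 CPM in the other CD62L-low cells. The label was checked with Nkg7, a granule membrane protein of cytotoxic and Th1 cells that the rule does not read. Its mRNA was found in 74.4% of the members, in 22.96% of the other CD62L-low cells and in 25.8% of the helper cells. Among 1136 B cells, which should lack it, 1.76% had an Nkg7 UMI at a median of 3670.5 UMIs per cell, against medians of 4178.5, 3543.5 and 5262.5 in the members, the other CD62L-low and the helper cells. The pair of Cxcr6 with Tbx21 or Ifng occurred in 0 of these B cells, which allows a share of up to 0.264%. It occurred in 8.29% of the CD62L-low and 1.75% of the CD62L-high CD4 cells, before the Il21 and Cxcr5 exclusions but after the NKT exclusion. These shares cover counting error only.

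**Figure D1:**
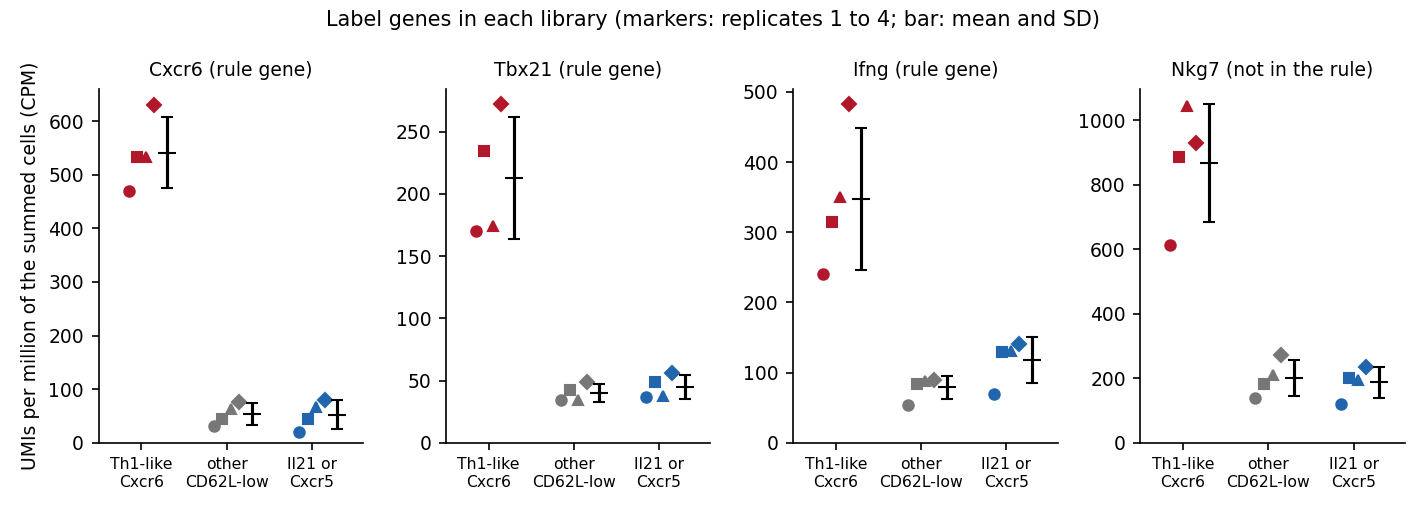
CPM of the rule genes Cxcr6, Tbx21 and Ifng and of Nkg7 in the Th1-like Cxcr6 cells, the other CD62L-low CD4 cells and the cells with an Il21 or Cxcr5 UMI, 1 marker per library, with the mean and SD as a bar. Nkg7, which the rule does not read, is at 611 to 1043 CPM in the members and at 140 to 272 CPM in the other CD62L-low cells.

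Members made up 3.61%, 7.11%, 5.96% and 6.41% of the CD62L-low CD4 cells of replicates 1 to 4 (5.77% ± 1.52, SD, n = 4). The 95% Wilson interval of replicate 1, 2.68% to 4.84%, lay below that of replicate 2, 5.86% to 8.60%. With each cell thinned to 2000 UMIs the shares were 2.6%, 3.92%, 2.84% and 4.54%, a mean of 3.47%. For this, 169, 112, 173 and 405 shallower CD62L-low cells had been left out. UMIs of Foxp3, Cd8a and Cd8b1 were thinned as well, so that cells that lost theirs joined the CD62L-low class. It then held 1114, 1430, 1305 and 1631 cells, against 1165, 1364, 1375 and 1920 without thinning. The share moved with thinning, in part through the make-up of the class, and replicate 1 stayed the lowest. CD62L itself was not part of the rule, and 344 of the 414 members had a CD62L count of at most 3, that is 85.7%, 91.5%, 68.3% and 88.5%.

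Against the other CD62L-low cells, 773 of 10417 genes tested were called (7.42%), 479 of them higher (4.6%) and 294 lower (2.82%) in the members, with the rule genes left out. Genes of the type 1 programme, of cytotoxic granules and NK receptors, and of tissue residence stood higher, while those of follicular-type helper cells and of stem-like or naive cells stood lower. Among the type 1 genes 13 of 21 tested rose and 1 fell, with a median log2 difference of 1.10. The residence list had 12 of 18 higher and 0 lower, with a median of 0.82. A list of recirculation genes, which shares Itgb7 with it, had 5 of 11 higher and 2 lower, with a median of 0.37. Over all genes tested the median was −0.01. The tested genes are read from the same cells that the rule genes chose, so that these calls name genes that go with Cxcr6 and Tbx21 or Ifng in a cell.

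Among receptors of the Th1-inducing cytokines, Il12rb2, the inducible chain of the IL-12 receptor, was at 17.5, 34.6, 25.6 and 21.2 CPM in the members, against 2.42, 2.09, 2.62 and 5.01 CPM in the other CD62L-low cells. All 4 member values lay above all others, at a log2 difference of 3.07 ± 0.38 (adjusted p = 3.8e-05). Il18rap and Il18r1, which form the IL-18 receptor, rose by 1.92 ± 0.20 and 1.19 ± 0.14. Il2rb, the β chain of the IL-2 and IL-15 receptors, rose by 1.00 ± 0.09, and Ifngr1, a chain of the interferon-γ receptor, by 1.31 ± 0.12. Of 25 cytokine receptor genes tested 9 rose and 2 fell, the 2 being the IL-6 receptor chains Il6ra and Il6st. Il7r, the IL-7 receptor chain of long-lived T cells, rose by 0.58 ± 0.12, although replicate 1 held 166 CPM in the members and 170 CPM in the other cells.

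Transcription factors divided. Id2, an inhibitor of E proteins used by effector T cells, was at 373, 443, 426 and 434 CPM in the members, against 105, 129, 146 and 158 CPM in the other CD62L-low cells. The groups did not overlap, and the difference was 1.68 ± 0.10 (adjusted p = 5.5e-09). Hopx, a homeodomain protein of effector Th1 cells, rose by 2.56 ± 0.19, and the Runt factors Runx3 and Runx2 by 1.10 ± 0.11 and 1.39 ± 0.13. Stat4, which carries the IL-12 signal, differed by 0.15 ± 0.10 (adjusted p = 0.50), and Eomes, a T-box factor related to T-bet, by −0.01 ± 0.37 (adjusted p = 0.99). Bhlhe40, a factor of cytokine-producing Th1 cells, was at 413, 392, 345 and 168 CPM in the members, against 200, 195, 168 and 211 CPM in the other cells. It was higher in 3 of 4 libraries and lower in replicate 4, with 0.75 ± 0.25 (adjusted p = 0.18) over all 4 and 1.05 ± 0.11 (adjusted p = 3.2e-05) without replicate 4. Against CD62L-low cells without Il21 and Cxcr5 UMIs it was called higher, by 1.36 ± 0.25 (adjusted p = 0.032).

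**Figure D2:**
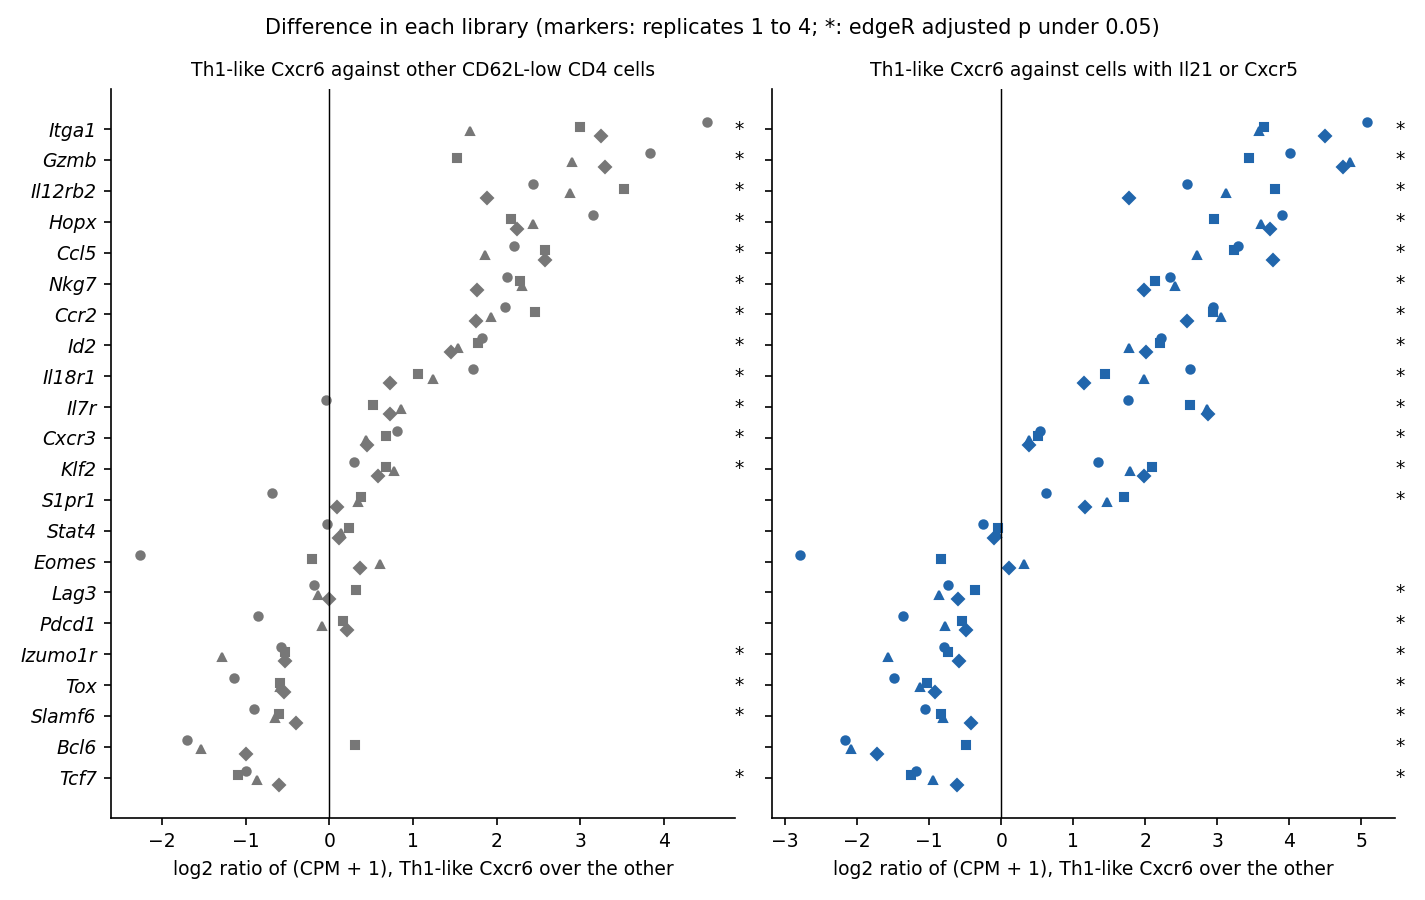
Log2 ratio of (CPM + 1) of the Th1-like Cxcr6 cells over the other CD62L-low CD4 cells (left) and over the cells with an Il21 or Cxcr5 UMI (right) for 22 genes, 1 marker per library. Itga1, Gzmb and Il12rb2 are to the right of 0 in all 4 libraries of both panels and Tcf7 is to the left, while Pdcd1 and Lag3 lie around 0 in the left panel and below 0 in the right one.

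Of the chemokines and their receptors, Ccl5, an inflammatory chemokine, had the highest level among the 12 largest rises, at 1553, 1899, 2833 and 3830 CPM in the members, against 335, 318, 780 and 639 CPM in the other CD62L-low cells. No member value fell within the range of the other cells, at 2.33 ± 0.12 (adjusted p = 1.5e-05). Its adjusted p was 0.059 without replicate 1, 0.11 in cells with a paired receptor and 0.16 with 1 cell per clonotype, at differences of 2.37, 2.26 and 2.06. The inflammatory receptors Ccr2 and Cxcr3 rose by 2.12 ± 0.14 and 0.62 ± 0.10. Ccl4 and Ccl3, which encode the macrophage inflammatory proteins, were called higher, by 1.17 ± 0.15 and 0.75 ± 0.19, but stood at −0.49 and −0.07, both with no call, in cells with a paired receptor. Ccr7, the receptor that leads T cells to lymph nodes, fell by −1.08 ± 0.13.

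In the cytotoxic and NK receptor list 11 of 16 genes tested rose and 1 fell, with a median of 1.40. Nkg7 was at 611, 887, 1043 and 928 CPM in the members, against 140, 181, 210 and 272 CPM in the other CD62L-low cells. The 2 sets of values were far apart, at 2.15 ± 0.09 (adjusted p = 4.6e-10). Gzmb, the protease granzyme B, was at 105, 9.89, 37.6 and 60.3 CPM in the members, against 6.45, 2.79, 4.15 and 5.27 CPM in the other cells. It was higher in every library, with replicate 2 nearest to the other cells, and the difference was 3.38 ± 0.30 (adjusted p = 1.0e-06), a call that was lost with 1 cell per clonotype (2.65, adjusted p = 0.36). Ctsw, a cathepsin of cytotoxic lymphocytes, and Gzmk, granzyme K, rose by 1.43 ± 0.10 and 1.36 ± 0.13. Prf1, which encodes perforin, was at 11.6 ± 6.27 CPM in the members and 8.01 ± 2.32 CPM in the other cells (SD, n = 4 each), and was not called (0.55 ± 0.38, adjusted p = 0.52). Lamp1, a lysosomal membrane protein, fell by −0.57 ± 0.12.

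The NK receptor genes Klrc1, Klrk1 and Klrd1, singled out after their values were seen, rose by 3.66 ± 0.85, 2.39 ± 0.49 and 2.34 ± 0.34. The call of Klrc1 was lost without replicate 2 or 4 (adjusted p = 0.16 in both) and that of Klrk1 without replicate 4 (adjusted p = 0.060). They also mark NK, NKT and γδ T cells, whose own markers stood as follows. Zbtb16, the factor of innate-like T cells, had a UMI in 10 of 414 members, in 7.87% of the 89 members without a TRA chain and 0.71% of the 281 with a paired receptor, and rose by 3.0 ± 0.59, with no call without replicate 3 (adjusted p = 0.097). The γδ constant gene Tcrg-C4 was at 10.9 to 34.3 CPM in the members and 0.65 to 3.49 CPM in the other cells, a difference of 3.22 ± 0.44. Of the 3 γδ genes tested Tcrg-C2 and Tcrg-C4 rose and Trdc was not called (0.91 ± 0.61), and the list's summed level was 24.0 to 55.5 CPM in the members and 4.88 to 9.06 CPM in the other cells. The NK list summed to 7.52 to 83.0 CPM in the members and 39.4 to 63.9 CPM in the other cells. Its 1 gene tested, Tyrobp, fell by −2.23 ± 0.38, a call lost in 5 of 18 alternative runs. Among these runs were 1 cell per clonotype and paired receptors only. Against the helper cells Tyrobp was not called (−0.70). In cells with a paired αβ receptor Klrc1, Klrk1 and Klrd1 differed by 4.10, 2.86 and 3.11, all called, and Nkg7 by 2.22, while Tcrg-C4 was still higher, by 3.38. The part of innate-like cells in these rises was not tested beyond these values.

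Within the residence list, Itga1, the α chain of the collagen receptor VLA-1, was at 32.8, 34.6, 15.04 and 35.9 CPM in the members, against 0.48, 3.49, 4.00 and 2.90 CPM in the other CD62L-low cells. Every member value was above 10 CPM and none of the others was, at 3.47 ± 0.46 (adjusted p = 2.3e-04). Rgs1, a G protein regulator that holds T cells in tissue, was at 954, 1110, 1085 and 1091 CPM in the members, against 284, 348, 314 and 430 CPM in the other cells (1.66 ± 0.08, adjusted p = 6.7e-10). Prdm1 and Zfp683, which encode the residence factors Blimp-1 and Hobit and were singled out after their values were seen, rose by 1.53 ± 0.22 and 2.81 ± 0.63, with Zfp683 at 7.01 ± 2.71 CPM in the members and 0.98 ± 0.63 CPM in the other cells (SD, n = 4 each). Itgae, the CD103 chain, differed by 0.93 ± 0.28 (adjusted p = 0.061), and Itgal, which encodes CD11a, by 0.13 ± 0.09 (adjusted p = 0.55). Cd69, which retains T cells in tissue and also marks recent activation, rose by 0.90 ± 0.10. The count of 12 was 7 without replicate 2, 8 without replicate 3 or without cycling cells, and 7 with 1 cell per clonotype or without the library as pair.

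A list of early response and heat shock genes that cell isolation can induce rose with these groups. In it 13 of 14 genes were higher in the members and none lower, with a median of 0.68, and its summed level was 11827 to 17179 CPM in the members and 7904 to 10213 CPM in the other CD62L-low cells. Hspa1a, a heat shock protein, rose by 0.81 ± 0.08 and Fos by 0.73 ± 0.08. The part of this in the rises of Cd69, Dusp2 (1.06 ± 0.11), Nr4a1 (0.76 ± 0.11) and the rest of the list of recent TCR signals, of which 4 of 17 rose and 2 fell, was not tested. Cycling genes were called in neither direction (0 of 22), although 43.2% to 57.1% of the members and 33.4% to 40.8% of the other cells held at least 2 UMIs of them.

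The other genes among the 12 largest rises were Lilr4b (2.73 ± 0.30), Chsy1, a chondroitin synthase (2.49 ± 0.22), Lgals3, which encodes galectin-3 (2.20 ± 0.17), Sytl2, a synaptotagmin-like protein of vesicle transport (2.15 ± 0.19), Cd7 (2.02 ± 0.15), Gna15, a G protein α subunit (1.98 ± 0.20), and St3gal6 (1.98 ± 0.20). Fasl, the death ligand, was at 24.0, 95.6, 61.7 and 81.6 CPM in the members, against 15.2, 17.4, 18.0 and 16.7 CPM in the other CD62L-low cells. All members stood higher, least in replicate 1 (1.97 ± 0.23). Factors of other helper lineages were not lower. Rora, a Th17 and residence factor, rose by 1.19 ± 0.14, and Gata3, the Th2 factor, by 0.64 ± 0.16 (adjusted p = 0.016). Among interferon-stimulated genes 2 of 21 rose and 2 fell, the guanylate-binding protein gene Gbp7 rising by 0.78 ± 0.11.

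Lower in the members were genes of stem-like and naive T cells. Tcf7, the factor TCF1 that maintains them, was at 216, 191, 203 and 274 CPM in the members, against 433, 410, 370 and 417 CPM in the other CD62L-low cells. The groups did not overlap, at −0.86 ± 0.10 (adjusted p = 2.7e-05). Id3 and Igfbp4 fell by −1.59 ± 0.20 and −2.75 ± 0.24, and in all 9 of 19 genes fell and 2, Il7r and Sidt1, rose. The other cells had been gated on low CD62L and the members had not. Izumo1r, the folate receptor FR4 of anergic and follicular-type T cells, was at 236, 199, 153 and 264 CPM in the members, against 353, 288, 376 and 381 CPM in the other cells (−0.70 ± 0.12, adjusted p = 0.0014). Of 14 anergy genes 4 fell and none rose. The list had 1 gene lower without replicate 3, 2 lower against CD62L-low cells without Il21 and Cxcr5 UMIs, and 1 lower and 1 higher of 12 with 1 cell per clonotype, where the call of Izumo1r was lost.

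Follicular-type helper genes fell in 11 of 19 cases and rose in 1, Icos, with a median of −0.70. Because the rule asks for no Il21 or Cxcr5 UMI in members, this list was set to be lower. Against only those CD62L-low cells that also lacked Il21 and Cxcr5 UMIs, 5 of 16 fell, 1 rose and the median was −0.18. Tox2, a follicular helper factor, was at −1.25 ± 0.14 against all other CD62L-low cells and at −0.02 ± 0.17 against those. Slamf6, a receptor of stem-like and follicular-type cells, fell by −0.60 ± 0.11 and kept its call in every alternative run.

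Inhibitory receptors also differed with the cells on the other side. Pdcd1, which encodes PD-1, was at 76.4, 185, 158 and 175 CPM in the members, against 139, 165, 167 and 150 CPM in the other CD62L-low cells, so that the groups overlapped (−0.05 ± 0.15, adjusted p = 0.91). Against CD62L-low cells without Il21 and Cxcr5 UMIs it was higher by 0.82 ± 0.18 (adjusted p = 0.016), and Lag3, at 0.03 ± 0.10 in the first comparison, by 0.86 ± 0.12. The list had 7 genes higher and 2 lower of 20 in the first comparison, and 12 higher and 1 lower of 19 in the second. Tox, the exhaustion factor, fell by −0.67 ± 0.11 in the first comparison and was not called in the second (−0.22 ± 0.13). Havcr2, which encodes TIM-3, rose by 1.42 ± 0.37 (adjusted p = 0.038), at 15.04 to 43.7 CPM in the members and 6.78 to 14.2 CPM in the other cells, and lost its call without replicate 2 or 4 (adjusted p = 0.18 and 0.053).

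**Figure D3:**
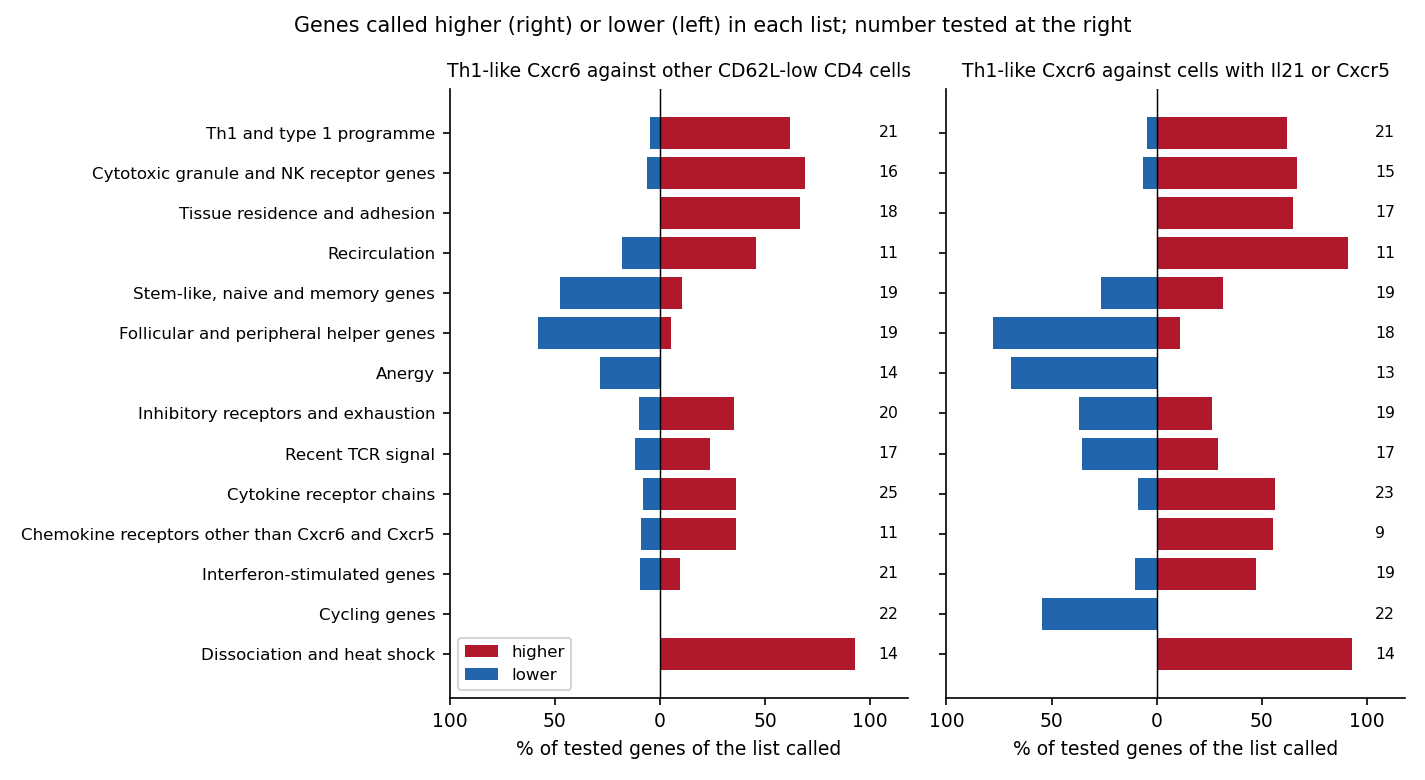
Share of the tested genes of 14 lists that were called higher (to the right) or lower (to the left) in the Th1-like Cxcr6 cells, against the other CD62L-low CD4 cells (left panel) and the cells with an Il21 or Cxcr5 UMI (right panel), with the number tested beside each bar. The type 1, cytotoxic and residence lists point right in both panels, the helper and anergy lists left, and cycling genes are called in the right panel alone.

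Some of the largest differences named other cell types in the comparison cells. Lyz2, a lysozyme of myeloid cells, had 0 UMIs in all member sums, against 93.6 to 171 CPM in the other CD62L-low cells, which makes it at least 103-fold lower in the members at a floor of 3 UMIs over the group. At least 2 UMIs of the myeloid list were held by 9 of the 414 members and 124 of the 5480 other cells, a similar share of each. Of the 7 myeloid genes tested 6 fell. The myeloid list summed to 10.5 to 45.9 CPM in the members and 209 to 457 CPM in the other cells. Jchain and Mzb1 of plasma cells fell too, by −4.77 ± 0.54 and −3.63 ± 0.40. Jchain lost its call without replicate 3 (adjusted p = 0.061), with 1 cell per clonotype, with 2 or more Cxcr6 UMIs and with paired receptors, and Mzb1 without the library as pair (adjusted p = 0.087). With only barcodes that held a CD3 UMI and no myeloid UMI, 758 genes were called. Cd79a of B cells was higher in the members (1.44 ± 0.19) and stood at −0.67, with no call, among members with CD62L of at most 3. Ins2 of β cells was called lower in the members (−2.31 ± 0.47), at 0, 3.30, 9.03 and 6.52 CPM in the members and 5.00, 4.18, 86.0 and 9.76 CPM in the other cells, and without replicate 3 it was at −0.85 with no call (adjusted p = 0.69). Its call was also lost in DESeq2 and without the library as pair, and 0 of 10 acinar genes were called.

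Against the helper cells, 1345 of 9443 genes were called (14.2%), 778 higher (8.24%) and 567 lower (6.0%). Genes of recirculation and of cytokine reception stood higher in the members, and genes of follicular-type help, anergy and cycling lower, the first of these by the choice of the cells. The type 1 list again had 13 of 21 higher and 1 lower, with a median of 1.66 beside −0.0048 over all genes. In the recirculation list 10 of 11 genes rose and none fell. Dissociation genes were higher here as well, 13 of 14, at 11827 to 17179 CPM in the members and 7386 to 8880 CPM in the helper cells, and their part in the other differences was not tested.

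Klf2, the factor that drives egress receptors, was at 470, 673, 803 and 905 CPM in the members, against 184, 157, 231 and 228 CPM in the helper cells. The values were apart in every library, at 1.87 ± 0.12 (adjusted p = 4.1e-07). S1pr1, the receptor by which T cells leave tissue, was at 89.5, 214, 248 and 168 CPM in the members, against 58.1, 65.0, 89.5 and 74.3 CPM in the helper cells (1.35 ± 0.16, adjusted p = 6.1e-05). Against the other CD62L-low cells Klf2 differed by 0.61 ± 0.09 and S1pr1 by 0.12 ± 0.15 (adjusted p = 0.76). With the Il21 and Cxcr5 cells taken out of those, Klf2 was at 0.03 ± 0.09 and S1pr1 at −0.46 ± 0.15, both uncalled.

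The 6 largest rises against helper cells were Gzmb (5.02 ± 0.38), St3gal6, a sialyltransferase (3.77 ± 0.28), Hopx (3.76 ± 0.21), Lilr4b, of the inhibitory leukocyte immunoglobulin-like receptors (3.67 ± 0.26), Fgl2, a fibrinogen-like protein (3.46 ± 0.38), and Ccl5 (3.30 ± 0.18). Il7r was at 166, 366, 516 and 437 CPM in the members, against 48.4, 58.8, 70.6 and 59.2 CPM in the helper cells (2.64 ± 0.17). Ifngr1 rose by 2.72 ± 0.16 and Ccr2 by 2.99 ± 0.15. Among interferon-stimulated genes 9 of 19 rose and 2 fell, with Gbp7 at 1.59 ± 0.12 and Irf7 at 1.30 ± 0.20.

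Lower than in helper cells were Tox (−1.08 ± 0.11), Pdcd1 (−0.70 ± 0.14), Lag3 (−0.58 ± 0.10) and Tigit (−0.47 ± 0.12), receptors and factors of chronically stimulated T cells that follicular-type cells also carry. Bcl6, the factor of follicular helper cells, fell by −1.40 ± 0.26, Izumo1r by −0.86 ± 0.14 and Sostdc1 by −5.55 ± 0.45. Nfatc1, an NFAT factor of antigen receptor signalling, fell by −0.69 ± 0.10, and Egr2, which TCR signals induce, by −1.85 ± 0.31. Among 17 genes of recent TCR signals 5 rose (Cd69, Dusp2, Dusp5, Nr4a1 and Tnfrsf18) and 6 fell, with a median of −0.18. Of 22 cycling genes 12 fell and none rose, and cells with at least 2 cycling UMIs were 43.2% to 57.1% of the members and 54.6% to 66.0% of the helper cells. Without those cells 651 genes were called.

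The rule genes were also looked at one by one in CD62L-low cells that lacked Il21 and Cxcr5 UMIs. Cells were placed by whether they held Cxcr6 together with Tbx21 or Ifng, Cxcr6 alone, Tbx21 or Ifng alone, or neither, which in these classes is a description. Nkg7 was at 769 to 1007 CPM with both, 296 to 692 CPM with Cxcr6 alone, 293 to 450 CPM with Tbx21 or Ifng alone and 62.0 to 167 CPM with neither. Tcf7 ran the other way, at 181 to 254, 244 to 298, 315 to 373 and 384 to 458 CPM. Cells just inside the rule, with exactly 1 Cxcr6 UMI and 1 UMI of Tbx21 or Ifng, numbered 7, 15, 20 and 23 and held Nkg7 at 432 to 1539 CPM. The CD11a antibody had medians of 214 to 347.5 with both, 190.5 to 225 with Cxcr6 alone, 168 to 277.5 with Tbx21 or Ifng alone and 86.0 to 138.5 with neither.

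**Figure D4:**
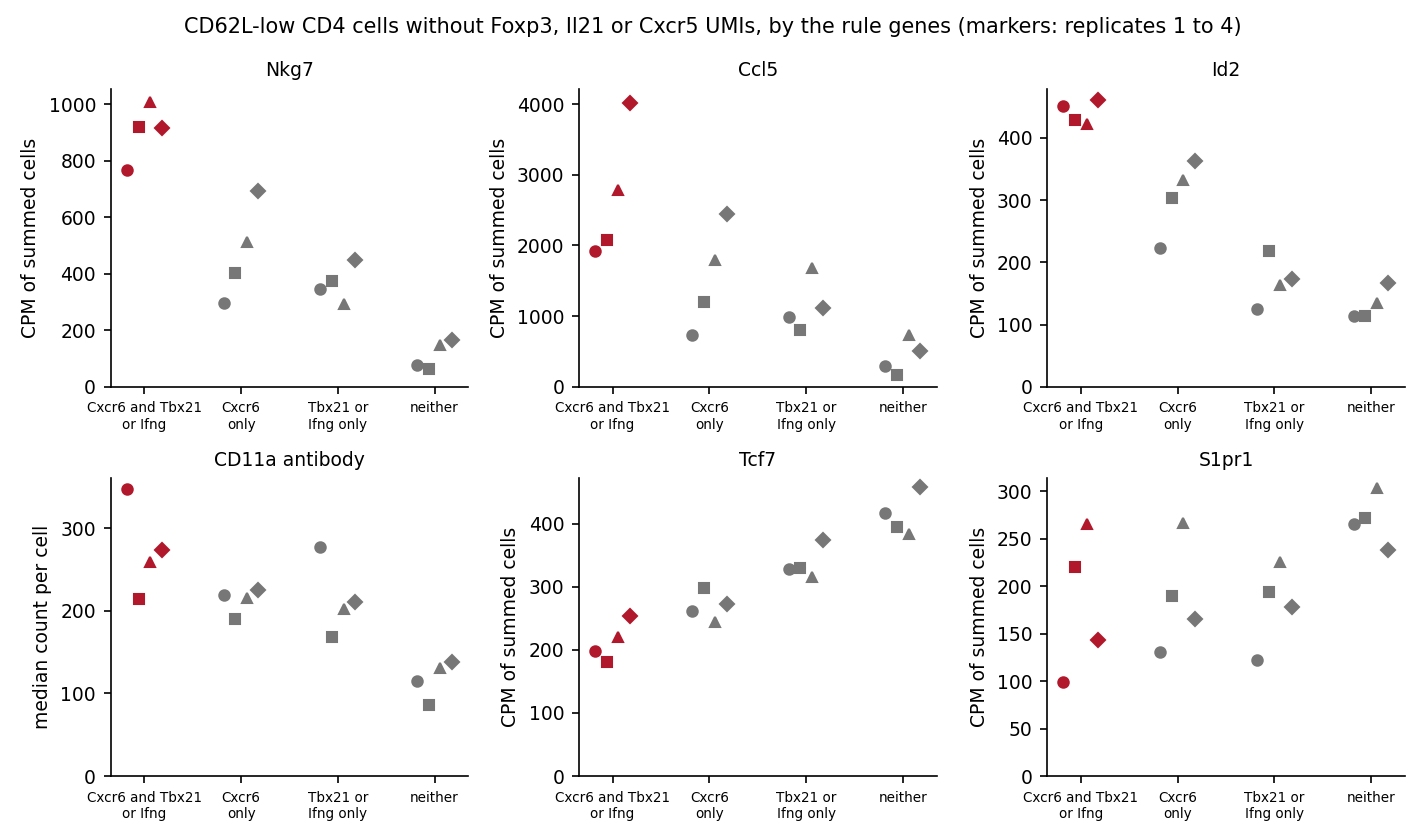
CPM of Nkg7, Ccl5, Id2, Tcf7 and S1pr1 and the median CD11a antibody count per cell in CD62L-low CD4 cells without Foxp3, Il21 or Cxcr5 UMIs, split by Cxcr6 and by Tbx21 or Ifng UMIs, 1 marker per library. Nkg7 is highest with both (769 to 1007 CPM) and lowest with neither (62.0 to 167 CPM), and Tcf7 is highest with neither (384 to 458 CPM).

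Among the members, cells with an Ifng UMI (29, 65, 71 and 71) were set against those without (20, 41, 49 and 68), which all carried Tbx21 by the rule. Of 4747 genes tested 9 were called (0.19%), 6 higher (0.126%) and 3 lower (0.0632%) in the Ifng cells. Dusp4, a phosphatase induced by MAP kinase signals, was at 160, 257, 94.8 and 106 CPM in the Ifng cells, against 23.6, 27.2, 31.6 and 49.9 CPM in the others. The groups did not overlap, at 2.01 ± 0.29 (adjusted p = 9.8e-04). Gpm6b, Cd200, Eea1, Jun and Klf6 also rose, and Ly6a, Tmsb10 and Cd52 fell. DESeq2 called 2 genes. edgeR called 0 without the library as pair and 0 with 1 cell per clonotype, with 195 and 149 genes at an unadjusted p under 0.05, so that the 9 calls rested on these choices.

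The CD11a antibody, a protein readout outside the rule, had a median of 376, 223, 270.5 and 274 counts in the members, against 206, 148, 198 and 194 counts in the other CD62L-low cells. It was higher in 4 of 4 libraries, by 0.60 ± 0.19 on the log2 scale (SD, n = 4), and the exact sign-flip permutation test gave the smallest p that 4 pairs allow, 0.125 (two-sided). Against CD62L-low cells without Il21 and Cxcr5 UMIs the difference was 1.01 ± 0.29 (SD, n = 4, exact permutation p = 0.125). Against the helper cells, with medians of 416, 347, 373 and 358, the members were lower in 4 of 4 libraries, by −0.41 ± 0.20 (SD, n = 4, exact permutation p = 0.125). Antibody counts were not corrected for depth. In cells of 2000 to 8000 UMIs the CD11a differences were 0.57 and −0.38. The CD4 antibody stood in the same order in every library. Its medians were 407, 221, 284.5 and 318 in the members. They were 287, 178, 271 and 294 in the other CD62L-low cells and 503, 331, 408 and 436 in the helper cells. Whether the CD11a differences are particular to CD11a was not tested.

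Cells were taken as 1 clone when all their productive CDR3 nucleotide sequences were the same, which could be asked of the 36, 75, 75 and 95 members with a paired TRA and TRB receptor. In clones of at least 2 cells of the library lay 52.8%, 44.0%, 45.3% and 57.9% of these members, against 50.8%, 45.8%, 45.0% and 47.3% of the other CD62L-low cells. The difference of 2.75 ± 5.44 points (SD, n = 4, exact permutation p = 0.375) was within its spread. Helper cells were in clones in 80.9%, 87.2%, 71.3% and 74.3%, so that the members were lower by −28.4 ± 11.1 points in 4 of 4 libraries (exact permutation p = 0.125, the smallest possible). Against CD62L-low cells without Il21 and Cxcr5 UMIs they were higher by 17.5 ± 3.41 points in 4 of 4 libraries (exact permutation p = 0.125).

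**Figure D5:**
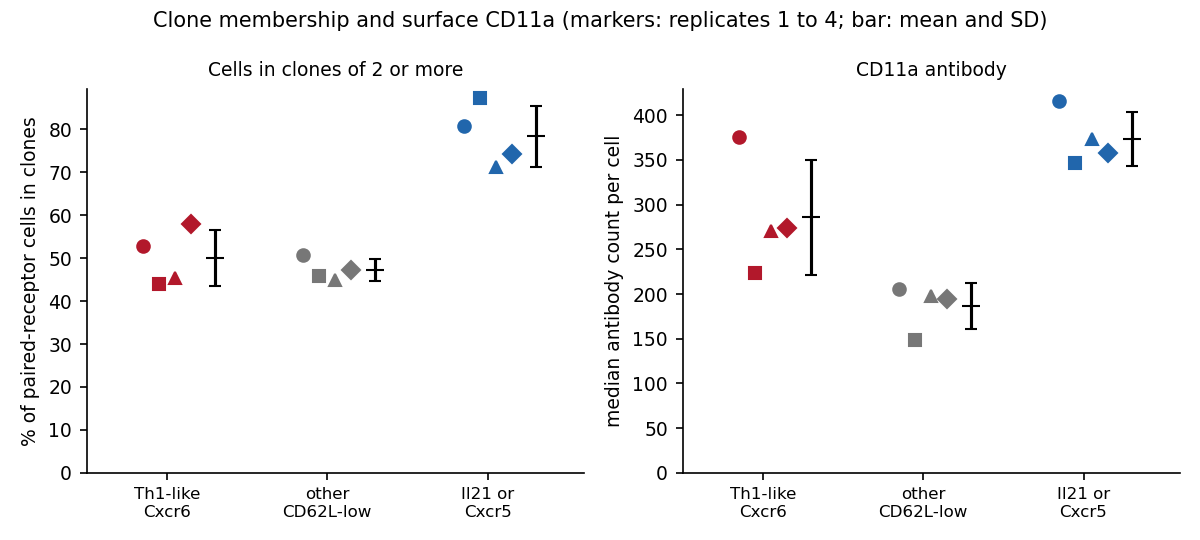
Percent of cells with a paired receptor that lie in clones of 2 or more cells (left) and median CD11a antibody count per cell (right), 1 marker per library, with the mean and SD as a bar. For clones the members (44.0% to 57.9%) overlap the other CD62L-low cells and lie below the cells with an Il21 or Cxcr5 UMI (71.3% to 87.2%), and for CD11a they lie between both groups in each library.

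Clone mates of members fell into several of the groups set by UMI and CD62L counts. A single missed UMI can place cells of the same state in different groups, and the part of this was not tested. The 281 paired members fell into 246 clonotypes, of which 221 held a single member and none more than 6. Of these clonotypes 55 also held helper cells, which is 22.4% of the member clonotypes and 10.1% of the 543 helper clonotypes. Other CD62L-low cells shared 82 (33.3% of the member clonotypes and 3.92% of 2093), CD62L-high cells 40 (16.3% and 1.0% of 4000) and Foxp3-positive cells 16 (6.5% and 2.05% of 781). In all, the 246 clonotypes took in 1132 cells, 281 of them members and 338 helper cells, and the member share ran between 16.7% and 36.8% by library. The receptors of the clone with most members in each library, the larger clone where several tied, are printed as examples. Taking the larger clone in a tie lowers the member part, which therefore does not describe clones at large. Capitals mark the first and last codon of the CDR3 (TRA on chromosome 14, TRB on chromosome 6), which encode the conserved cysteine and phenylalanine.
Replicate 1, TRAV16N and TRAJ15: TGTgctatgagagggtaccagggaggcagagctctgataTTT
Replicate 1, TRBV13-1 and TRBJ2-5: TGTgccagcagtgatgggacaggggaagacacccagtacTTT
Replicate 2, TRAV4-3 and TRAJ13: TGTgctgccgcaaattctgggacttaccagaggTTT
Replicate 2, TRBV31 and TRBJ1-4: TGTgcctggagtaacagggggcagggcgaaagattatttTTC
Replicate 3, TRAV14D-1 and TRAJ57: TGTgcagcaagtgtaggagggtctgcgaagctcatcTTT
Replicate 3, TRBV15 and TRBJ2-7: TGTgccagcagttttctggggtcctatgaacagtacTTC
Replicate 4, TRAV9D-3 and TRAJ32: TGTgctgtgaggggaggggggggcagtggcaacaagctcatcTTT
Replicate 4, TRBV15 and TRBJ2-7: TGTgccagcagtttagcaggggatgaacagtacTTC
The clone of replicate 3 held 6 members among 54 cells, with 15 helper and 18 CD62L-high cells. That of replicate 4 held 3 members among 58 cells, 29 of them helper cells, that of replicate 1 held 2 among 52 and that of replicate 2 held 2 among 20. Both clones of replicates 3 and 4 used TRBV15 with TRBJ2-7 and differ in the CDR3. Over all clonotypes, V gene usage of the members gave 0 calls among 7 TRAV (0.0%) and 0 among 13 TRBV genes (0.0%) in edgeR, with 0 and 1 at an unadjusted p under 0.05. The 1 was TRBV15, higher in the members by 0.79 ± 0.34 (adjusted p = 0.33).

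Promoters were searched for GGTGTGA, the core of the element that T-box factors bind, on both strands, in windows of 300 bases around the start given by RefSeq for GRCm38.p6. The window held them in 3.96% of 27025 promoters, in 3.25% of the 8054 matched among genes tested here, in 21 of 345 matched genes that rose (6.09%) and in 7 of 204 that fell (3.43%). Of the 12 largest rises 9 had a window and 1, Nkg7, held the letters. It is printed with these letters in capitals, from chr7:43436888-43437187 on the plus strand, because Nkg7 was the label gene outside the rule.
Nkg7: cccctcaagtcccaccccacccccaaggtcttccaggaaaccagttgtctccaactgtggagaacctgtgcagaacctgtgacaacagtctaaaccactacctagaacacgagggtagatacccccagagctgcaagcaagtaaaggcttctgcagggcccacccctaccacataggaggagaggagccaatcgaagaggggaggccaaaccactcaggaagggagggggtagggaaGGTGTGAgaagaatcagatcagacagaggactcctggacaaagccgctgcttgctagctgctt
A match is a description of the letters and no evidence of binding.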

How the data were processed

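Per the file headers, the deposited tables hold UMI counts per gene and antibody tag for each barcode, written by Cell Ranger 4.0.0 with no normalization, and the authors' receptor tables list assembled chains per barcode. The submitters' processing notes name the mm10 build and Seurat. Libraries held 4136 to 8718 barcodes and 26861163 to 37834174 RNA UMIs, so intervals cover counting error only. Doublets were not called, and barcodes with a second TRB chain were left out in an alternative. Antibody counts were read from the mRNA matrices.

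UMI counts were summed over the cells of a group in each library and tested with edgeR 4.0.16 (R 4.3.3, robust quasi-likelihood fit, filterByExpr, TMM, Benjamini-Hochberg over all genes tested), with the library as a block, since both sums of a pair come from 1 library. Deviations from the group means correlated by 0.154, 0.124, 0.132 and 0.083 within libraries 1 to 4 against the other CD62L-low cells. They correlated by 0.213, 0.15, 0.158 and 0.033 against helper cells, and by 0.231, 0.05, −0.007 and 0.158 in the Ifng comparison. The SE is the log2 fold change divided by the root of F. Rule genes were left out of counts. CD11a and clone shares were compared by exact sign-flip permutation over the 4 libraries (scipy 1.17.1), two-sided. The steps were tested on simulated data. DESeq2 1.42.0 was an alternative.

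Named genes were the 12 largest rises and falls past the threshold in the same direction in 4 of 4 libraries with at least 30 CPM on the higher side (6 each way for the other comparisons), up to 4 called genes of each list by p, and a fixed set. List genes beyond these, such as Klrk1, Klrd1, Zfp683, Prdm1, Prf1, Lamp1, Sidt1, Icos and Irf7, were named after their values were seen. The members and lists were chosen with earlier results of these data known. Some genes of the lists are not reported here by name.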

Additional observations from a re-analysis of the deposited data

Results flagged for a closer look

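In 9 of 134 sets of 4 libraries 1 library stood apart from the other 3 by Dixon's test at its 95% limit, and chance gives about 1 in 20. The values are log2 ratios of (CPM + 1) of the members over the other CD62L-low cells unless said otherwise.

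Replicate 4 stood apart for Bhlhe40, at −0.3304 against 1.042, 1.004 and 1.03 in replicates 1 to 3, for Rora, at 0.6171 against 1.296 to 1.396, and for Nr4a1, at 0.2597 against 0.8555 to 0.9465. Replicate 1 stood apart for Tox, at −1.139 against −0.5911 to −0.5415, and for Ctla4, at 0.8131 against 0.4616 to 0.485. Izumo1r was at −1.287 in replicate 3 against −0.5778 to −0.5277 in the others. Apoe was at −6.333 in replicate 2 against −4.878 to −4.701. Against helper cells Lyz2 was at −3.726 in replicate 4 and at −6.71 to −6.35 in the others, where the helper cells of replicate 4 held the least Lyz2. Of the other CD62L-low cells 74.03% had a paired receptor in replicate 2, against 65.61% to 66.61% in the other libraries.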

How the results depend on the processing

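The 773 genes called against the other CD62L-low cells became 418 with 1 cell per clonotype, 384 without cycling cells and 472 with at least 2 Cxcr6 UMIs per member, and 434 to 1098 without 1 replicate (473 without replicate 2, 434 without replicate 3). The 1345 against helper cells became 797 in DESeq2, 860 with 1 cell per clonotype, 651 without cycling cells and 719 to 1902 without 1 replicate (780, 719 and 891 without replicates 2, 3 and 4). The 9 Ifng calls became 58 with no low count filter, 2 in DESeq2, 26 without cycling cells, 3 with 1 TRB chain, 16 at 2000 to 8000 UMIs, 0 with 1 cell per clonotype (149 at an unadjusted p under 0.05) and 5 to 14 without 1 replicate (14 without replicate 3, 5 without replicate 4). Without the replicate block 663, 1272 and 0 genes (195 at an unadjusted p under 0.05) were called, and V gene usage again gave 0 calls. With no low count filter 46.0% of the calls against the other CD62L-low cells were higher, and with it 62.0%, the median of all genes being −0.19 without it. The cause of these moves was not tested. Of the genes named by the set rules, counted once per comparison, 9, 15, 18 and 12 lost their call without replicates 1 to 4, and 29 without the block. Genes named after their values were seen are not in these counts. The thinned share of members was 3.47%.

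Signs turned for Ccl4 (−0.49) and Ccl3 (−0.069) with paired receptors and Cd79a (−0.67) in members with CD62L of at most 3. Eomes was at 0.42 without cycling cells, 0.032 with a PE count of 0, 0.39 against cells without Il21 and Cxcr5 UMIs, 0.069 with 2 or more Cxcr6 UMIs, 0.017 without Zbtb16 barcodes, 0.19 with a CD3 and no myeloid UMI and −0.46 to 0.46 without 1 replicate. S1pr1 was at −0.21 with 1 cell per clonotype, −0.14 without cycling cells, −0.46 against cells without Il21 and Cxcr5 UMIs and −0.047 with 2 or more Cxcr6 UMIs. Pdcd1 was at 0.18 with 1 cell per clonotype, 0.23 with 2 or more Cxcr6 UMIs, 0.82, with a call, against cells without Il21 and Cxcr5 UMIs, and at −0.16 to 0.13 without 1 replicate. Lag3 was at −0.026 with no low count filter, −0.20 at 2000 to 8000 UMIs, −0.046 with a CD3 and no myeloid UMI and −0.082 to 0.096 without 1 replicate. Bcl6 was at 0.072 against cells without Il21 and Cxcr5 UMIs. With RLE size factors 766 of the 773 and 1336 of the 1345 calls were shared, and no gene named by the set rules changed its call. Alternatives on Cd79a, Zbtb16, CD3 and paired receptors were chosen after seeing the data, as were the CD11a and clone comparisons with helper cells.

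A single Cxcr6 UMI decided membership for 163 cells. With 4 libraries the smallest permutation p is 0.125.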
